A study of Mus musculus with 14 samples.

Results

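Atf3 and 9 genes that regulate or belong to the integrated stress response (ISR) were examined in the hearts of female mice with mitochondrial cardiomyopathy. The 10 genes were Atf3, Atf4, Atf5, Ddit3, Cebpb, Cebpg, Trib3, Nupr1, Jdp2 and Ppp1r15a. They were taken by symbol from the 42396 genes of the count tables, and each of them passed the expression filter in both experiments. The rule itself used symbols alone, but the genes were chosen with earlier results of these data known. No gene of the group passed the main test (edgeR) in either experiment, and Nupr1 passed in the AAV experiment with DESeq2 and under a few other settings given below. The mean level of Atf3 was higher, not lower, in the knockout group and in the group labelled for the hairpin, and neither difference passed.

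In the ISR, kinases phosphorylate the translation factor eIF2alpha when a cell meets amino acid shortage, unfolded protein, heme loss or mitochondrial damage. Translation of most mRNAs then falls, while that of Atf4 and a few others rises, and Atf4 with its dimer partners induces genes of amino acid supply, redox defence and cell death. Atf3 is a stress-induced basic leucine zipper (bZIP) factor downstream of Atf4, and in the heart its induction has been tied to several kinds of injury. Much of the control of Atf4 and Atf5 is translational and is not seen in mRNA counts.

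All mice were FS6KD, that is, homozygous for a gene trap (Ndufs6 gt/gt) that lowers Ndufs6, a subunit of respiratory complex I, on a mixed C57BL/6J and 129/Ola background. In the knockout experiment, RNA was sequenced from 12-week hearts, 4 of the genotype Atf3+/+FS6KD and 4 of the genotype Atf3-/-FS6KD. The deletion was made with CRISPR-Cas9 in FS6KD eggs, reached from exon 2 to exon 4 of Atf3, was present in all cells, and was bred from intercrossed founders. In the AAV experiment, 3 hearts titled MyoAAV2-shCtrl and another 3 with the title MyoAAV2-shAtf3 were sequenced after neonatal injection of a muscle-directed adeno-associated virus that carried a control hairpin or a hairpin against Atf3. The design text describes the knockdown as muscle-specific, while the RNA came from whole hearts. The age at collection was not taken from the labels for these hearts. In the AAV table and the sample descriptions, the columns named for Atf3 belong to the libraries titled MyoAAV2-shCtrl, and those named as controls to the libraries titled MyoAAV2-shAtf3. The titles and genotype labels were followed, so all AAV directions below hold only as far as these labels do.

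Library totals ran from 33914931 to 134920825 in the knockout series, with replicates 3 and 4 of both genotypes deeper than replicates 1 and 2, and from 30085432 to 40534913 in the AAV series. The targeted Ndufs6 stood at 2.40 to 3.72 CPM (counts scaled to the library's total) in all 14 libraries, which hold no hearts with normal Ndufs6 for comparison. The 6 cardiomyocyte markers (Myh6, Tnnt2, Actc1, Ryr2, Tnni3 and Pln) summed to 40901 to 59578 CPM, so the libraries carried the labelled tissue. In whole hearts, fewer cells of a type and less RNA per cell cannot be told apart. Even the scarcest of the 10 genes, Trib3, had at least 77 counts in every library.

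The Atf3 gene spans chr1:191170296-191183333 of GRCm38 in RefSeq, on the minus strand. Its main GENCODE transcript, which starts a few bases farther out, has 4 exons and 1984 bases. Exon 1 (chr1:191183093-191183340, 248 bases) is untranslated, exon 2 (chr1:191177231-191177474) holds 240 coding bases, exon 3 is coding over its whole length, and exon 4 (chr1:191170296-191171679, 1384 bases) holds 195 coding bases and a long untranslated end. Untranslated sequence makes up 1441 bases (72.6%) of the transcript, and exons 1 and 4 together 82.3%. The count tables give 1 value per gene and library, so counts from the sequence that the deletion leaves cannot be separated from counts of the part it removes. The Atf3 count therefore does not check the knockout label.

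**Figure D1:**
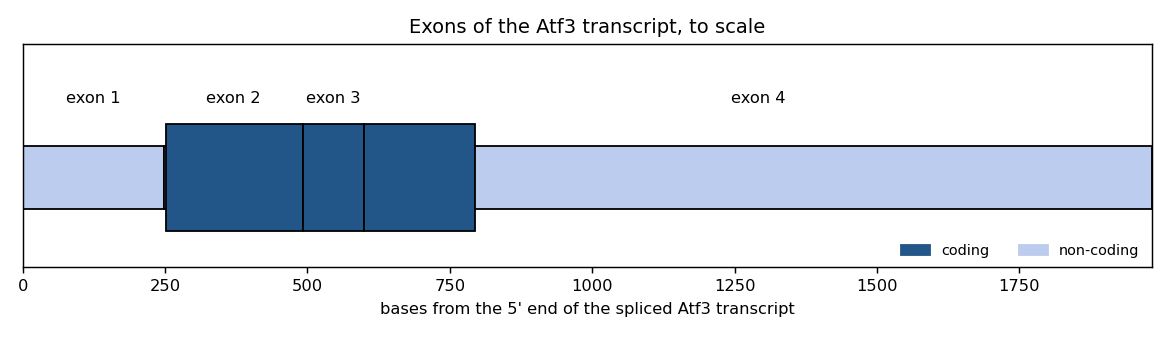
The spliced Atf3 transcript drawn to scale in bases from its 5' end, with coding sequence in dark boxes and untranslated sequence in light ones. The coding boxes are a small block near the 5' end, and 72.6% of the 1984 bases are untranslated.

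The promoters of the 10 genes were searched for binding motifs of the ISR and of Atf3. The windows were RefSeq promoters of GRCm38.p6 from 250 bases before to 50 bases after the start site, 13 windows for the 10 genes because Atf5 and Jdp2 have several. The C/EBP-ATF response element (CARE), to which Atf4 with a C/EBP partner is known to bind, was searched as TGATGNAA on both strands and was found in 4 of the 13 windows, each of another gene, and in 3.97% of all 32817 windows. The cyclic AMP response element (CRE), TGACGTCA, was found in Ppp1r15a alone and in 1.79% of all windows. The AP-1 element, TGANTCA, was found in Ddit3 alone, at -242 from the start site, and in 7.81% of all windows. No match overlapped another. A match describes the letters and is not a bound site.

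The windows of Atf3 (chr1:191183284-191183583), Trib3 (chr2:152344011-152344310), Nupr1 (chr7:126625421-126625720) and Ppp1r15a (chr7:45526219-45526518) are given on the strand of the gene, all of them the minus strand, since the results below turn on these 4 genes. The capitals mark the CARE match in the first 3, which is there in its reverse complement, and the CRE match in Ppp1r15a. The match began at -110 in Atf3, at 14 after the start site in Trib3, at -110 in Nupr1 and at -12 in Ppp1r15a. The remaining CARE match lay at -33 of the second start site of Jdp2.
Atf3 promoter: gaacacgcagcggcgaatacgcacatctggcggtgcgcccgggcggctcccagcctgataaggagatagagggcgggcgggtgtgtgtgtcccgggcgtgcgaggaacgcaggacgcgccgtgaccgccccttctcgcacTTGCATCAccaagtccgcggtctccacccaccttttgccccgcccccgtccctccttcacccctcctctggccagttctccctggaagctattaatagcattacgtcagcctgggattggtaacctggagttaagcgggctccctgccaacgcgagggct
Trib3 promoter: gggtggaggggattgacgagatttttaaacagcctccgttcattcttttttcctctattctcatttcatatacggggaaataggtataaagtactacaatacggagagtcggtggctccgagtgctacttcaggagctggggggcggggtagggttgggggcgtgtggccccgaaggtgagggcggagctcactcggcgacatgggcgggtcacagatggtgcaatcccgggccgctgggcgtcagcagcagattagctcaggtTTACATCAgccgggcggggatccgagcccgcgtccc
Nupr1 promoter: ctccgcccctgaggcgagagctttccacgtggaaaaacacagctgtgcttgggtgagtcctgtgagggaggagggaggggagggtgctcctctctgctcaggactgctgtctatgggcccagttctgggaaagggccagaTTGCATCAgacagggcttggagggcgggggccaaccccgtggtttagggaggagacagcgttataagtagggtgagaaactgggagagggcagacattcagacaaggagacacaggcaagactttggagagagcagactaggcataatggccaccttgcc
Ppp1r15a promoter: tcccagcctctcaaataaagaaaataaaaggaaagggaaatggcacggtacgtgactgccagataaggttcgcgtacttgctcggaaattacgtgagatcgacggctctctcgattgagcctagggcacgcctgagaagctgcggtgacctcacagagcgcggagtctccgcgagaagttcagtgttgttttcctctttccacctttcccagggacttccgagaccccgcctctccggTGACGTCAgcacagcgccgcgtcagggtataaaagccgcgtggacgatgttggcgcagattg

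Per length of merged exons, the level of the genes ran from Atf4 to Trib3. Mean levels over the 14 libraries, in CPM per kilobase with SD, were 49.5 ± 4.07 for Atf4, 42.7 ± 10.6 for Atf5, 16.1 ± 2.13 for Ppp1r15a, 12.8 ± 4.54 for Cebpb and 10.5 ± 1.62 for Ddit3. Lower levels were found for Atf3 (7.74 ± 4.16), Cebpg (6.54 ± 0.761), Jdp2 (5.10 ± 1.22), Nupr1 (2.51 ± 0.832) and Trib3 (2.34 ± 0.908). Among neighbours in this order, only the ranges of Atf5 and Ppp1r15a did not overlap over the 14 libraries. Compared within each library, Atf5 was above Ppp1r15a and Jdp2 above Nupr1 in 14 of 14, Cebpg above Jdp2 in 13 of 14 and Atf4 above Atf5 in 11 of 14. The remaining neighbours kept the order of their means in 7 to 10 of 14. Atf3 had the widest spread for its level, from 2.95 to 17.5 CPM per kilobase, and was above its neighbour Cebpg in 7 of 14 libraries. Its mean was 5.33 in Atf3+/+FS6KD, 11.6 in Atf3-/-FS6KD, 5.80 in MyoAAV2-shCtrl and 7.71 in MyoAAV2-shAtf3, so its place in the order differed between groups. The knockout level was divided by the full exon length, although the deletion removes part of it. With the length of the principal annotated transcript instead, Ddit3 (20.2 CPM per kilobase) came before Ppp1r15a, and Nupr1 (7.60) before Jdp2. The annotation gives Nupr1 a long minor transcript and lists Ddit3 under more than 1 gene identifier, which makes their level per length uncertain.

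The knockout comparison asks how the stress program of FS6KD hearts stands without functional Atf3. In replicates 1 to 4 of Atf3+/+FS6KD the TMM-normalised level of Atf3 was 25.8, 6.89, 6.91 and 6.36 CPM. In the same order, the Atf3-/-FS6KD libraries had 25.6, 37.6, 22.7 and 14.3 CPM. Replicates 2, 3 and 4 of Atf3+/+FS6KD were low and close together, replicate 1 was as high as the knockout libraries, and the groups overlapped through it. The means were 11.5 ± 9.53 and 25.1 ± 9.64 CPM (SD, n = 4 each), a log2 fold change of 1.14 (SE 0.49, 95% confidence interval 0.03 to 2.24). Atf3 did not pass the test over all genes (edgeR quasi-likelihood, adjusted p = 0.48, unadjusted p = 0.0449). The log2 fold change was 0.94 within the shallow libraries and 1.48 within the deep ones. Without Atf3+/+FS6KD replicate 1 it was 1.89 (adjusted p = 0.113).

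None of the 10 genes was called in this comparison (edgeR adjusted p below 0.05), where 0% of the 15592 genes tested were called. DESeq2 and limma-trend called none of the 10 either, while DESeq2 called 1.34% of the genes it tested. At an unadjusted p below 0.05 stood Atf3 and Trib3, 2 of 10, beside 10.1% of all genes. The log2 fold change was above 0 for 7 and below 0 for 3 genes, beside 50.2% of all genes above 0, with a median of 0.13 beside 0.00 over all genes.

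With Atf3+/+FS6KD as the controls and Atf3-/-FS6KD as the knockouts, Trib3, a pseudokinase that restrains Atf4 and Akt, stood at 5.24, 4.06, 3.19 and 5.62 CPM in the controls and at 6.90, 6.57, 9.12 and 4.77 CPM in the knockouts. All but replicate 4 of Atf3-/-FS6KD were above every Atf3+/+FS6KD library. The log2 fold change came to 0.59 (SE 0.23, adjusted p = 0.441 by edgeR). Cebpg, a C/EBP that pairs with Atf4, stood at 32.9, 33.4, 34.1 and 30.04 CPM in the controls and at 36.8, 37.5, 34.4 and 34.2 CPM in the knockouts. Its groups did not overlap, with the highest Atf3+/+FS6KD library just under the lowest Atf3-/-FS6KD library, and its log2 fold change was small (0.13, SE 0.06, adjusted p = 0.527 by edgeR). Groups did not overlap with Atf3-/-FS6KD higher in 3.08% of all genes.

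Atf4, the central effector of the ISR, stood at 114, 116, 112 and 104 CPM in the controls and at 113, 136, 129 and 109 CPM in the knockouts. The groups overlapped, with a log2 fold change of 0.13 (SE 0.08, 95% confidence interval -0.06 to 0.31). Atf5, the relative of Atf4 that serves the mitochondrial unfolded protein response, stood at 62.1, 59.1, 118 and 79.5 CPM against 59.0, 64.4, 108 and 66.8 CPM. Replicate 3 was the highest in both genotypes, and the log2 fold change was -0.10 (SE 0.25). Its sign turned without Atf3+/+FS6KD replicate 3 (0.15).

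Ddit3, which encodes the death-linked factor CHOP, stood at 14.3, 21.3, 16.6 and 12.7 CPM in the controls and at 14.9, 20.7, 17.8 and 17.4 CPM in the knockouts, with overlapping groups and a log2 fold change of 0.13 (SE 0.16). Ppp1r15a, the eIF2alpha phosphatase subunit GADD34 that ends the ISR, stood at 60.0, 43.5, 43.1 and 47.3 CPM against 51.4, 55.6, 48.1 and 48.2 CPM, a log2 fold change of 0.07 (SE 0.11, 95% confidence interval -0.18 to 0.31). The library with the most Ppp1r15a was the Atf3+/+FS6KD library that was high in Atf3. Nupr1, a small stress-induced chromatin protein, stood at 4.33, 4.28, 7.77 and 4.54 CPM against 5.26, 9.11, 6.94 and 4.97 CPM, a log2 fold change of 0.31 (SE 0.25). In Nupr1 the Atf3+/+FS6KD replicate 3 stood apart from the others of its group, and the log2 fold change was 0.74 within the shallow and -0.05 within the deep libraries.

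Cebpb, a C/EBP of stress and inflammation, stood at 16.1, 13.7, 32.6 and 11.1 CPM in the controls and at 12.7, 19.1, 10.6 and 13.3 CPM in the knockouts. A single high library, Atf3+/+FS6KD replicate 3, set its log2 fold change of -0.41 (SE 0.33), which was 0.03 without that library. Jdp2, the closest relative of Atf3 and likewise a repressor at AP-1 sites, stood at 7.32, 10.1, 13.98 and 8.11 CPM against 6.48, 11.4, 9.30 and 9.37 CPM, with overlapping groups and a log2 fold change of -0.12 (SE 0.22). Replicate 3 of Atf3+/+FS6KD was the highest library of its group for Atf5, Cebpb, Cebpg, Nupr1 and Jdp2 and the lowest for Trib3 and Ppp1r15a.

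**Figure D2:**
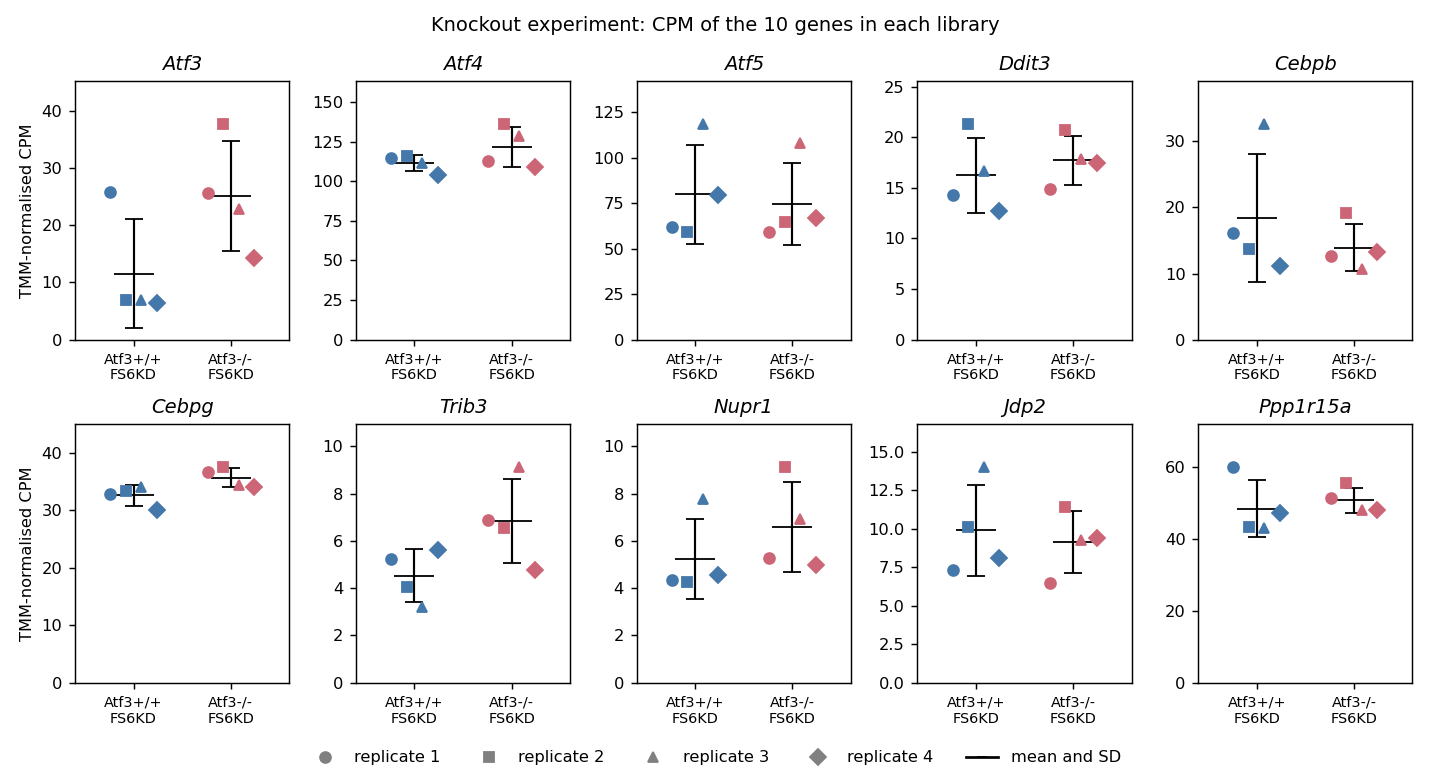
TMM-normalised CPM of the 10 genes in the 4 Atf3+/+FS6KD (blue) and 4 Atf3-/-FS6KD (red) libraries, 1 panel per gene, marker shape for the replicate number, bars for the mean and SD. Atf3 is low in all but 1 Atf3+/+FS6KD library, and Cebpg is the only gene whose groups do not overlap.

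The AAV comparison asks the same of hearts with a hairpin against Atf3. Atf3 stood at 10.1, 13.3 and 14.1 CPM in the libraries labelled shCtrl and at 21.2, 12.1 and 16.5 CPM in those labelled shAtf3. The groups overlapped, and the level was not lower under the label of the hairpin against Atf3. The means were 12.5 ± 2.13 and 16.6 ± 4.52 CPM (SD, n = 3 each), a log2 fold change of 0.41 (SE 0.19, 95% confidence interval -0.02 to 0.85, adjusted p = 0.42 by edgeR). Without replicate 1 labelled shAtf3, the highest library, it was 0.20. The direction is opposite to that of a knockdown under the labels and is that of a knockdown under the column names. Since the groups overlapped and the difference did not pass, the targeted gene does not settle which column holds which group.

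None of the 10 genes was called by edgeR here, beside 0.539% of the 15225 genes tested. At an unadjusted p below 0.05 stood Nupr1, Trib3 and Cebpg, 3 of 10, beside 12.7% of all genes, and their groups did not overlap, with the libraries labelled shAtf3 lower. Groups did not overlap in that direction in 9.94% of all genes. DESeq2 called Nupr1 (adjusted p = 0.00295) beside 2.02% of the genes it tested, and limma-trend called none of the 10. The log2 fold change was above 0 for 3 and below 0 for 7 genes, beside 49.1% of all genes above 0, with a median of -0.07 beside 0.00 over all genes.

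Nupr1 stood at 9.61, 10.3 and 6.24 CPM in the libraries labelled shCtrl and at 4.50, 5.48 and 4.93 CPM in those labelled shAtf3. The latter were close together and below all of the former. This gave a log2 fold change of -0.81 (SE 0.18, 95% confidence interval -1.22 to -0.40, adjusted p = 0.121 by edgeR). It passed the test with no filter on low counts (adjusted p = 0.00805, beside 1.13% of all genes). It also passed without replicate 3 labelled shCtrl, the lowest of its group (log2 fold change -1.0, adjusted p = 0.00414, beside 285 of 15144 genes). With any other single library left out it did not pass (adjusted p from 0.201 to 0.383 by edgeR). Trib3 stood at 7.24, 3.31 and 4.70 CPM against 2.93, 3.30 and 2.62 CPM, where the lowest library labelled shCtrl was level with the highest labelled shAtf3. Trib3 had a fold change on the log2 scale of -0.79 (SE 0.26, adjusted p = 0.259 by edgeR) and -0.44 without replicate 1 labelled shCtrl. Cebpg stood at 43.5, 41.5 and 44.4 CPM against 33.9, 38.2 and 39.8 CPM, a fold change on the log2 scale of -0.21 (SE 0.07, adjusted p = 0.288 by edgeR).

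Summed markers of fibroblasts and macrophages were also lower in every library labelled shAtf3. The 6 fibroblast markers (Col1a1, Col3a1, Dcn, Pdgfra, Postn and Tcf21) summed to 1932 to 2698 CPM in the libraries labelled shCtrl and to 1442 to 1542 CPM in those labelled shAtf3. All 6 had a log2 fold change below 0, and Col1a1, Col3a1 and Postn passed the test. The 6 macrophage markers summed to 194 to 212 CPM and 182 to 185 CPM, with 5 of 6 lower and none called. In the knockout experiment all 6 fibroblast markers had a log2 fold change above 0 with none called, and their sums of 1404 to 1689 CPM and 1671 to 2292 CPM overlapped. Of the other lists there, 5 of 5 endothelial and 5 of 6 macrophage markers were above 0, and 5 of 6 cardiomyocyte and 5 of 5 erythrocyte markers below 0, with none called and overlapping sums. In the AAV experiment the 6 cardiomyocyte and 5 erythrocyte markers were above 0, and the endothelial markers split into 3 above and 2 below. Again none was called and the sums overlapped. The 4 skeletal muscle markers summed to 3463 to 5822 CPM in Atf3+/+FS6KD and to 2428 to 3097 CPM in Atf3-/-FS6KD, without overlap, but nearly all of this sum was Acta1 and Ckm, which heart muscle makes too. The myosins Myh1 and Myh4, which define skeletal muscle, both failed the expression filter, and Myh4 was at 0 in 2 of 8 libraries. No fibroblast or macrophage marker was at 0 in any library. The part of these cells in the levels of Nupr1, Trib3 and Cebpg was not tested.

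The remaining genes lay closer to 0. Atf4 stood at 117, 117 and 133 CPM in the libraries labelled shCtrl and at 107, 110 and 118 CPM in those labelled shAtf3, a log2 fold change of -0.13 (SE 0.07). Ppp1r15a stood at 45.1, 40.8 and 52.9 CPM against 44.5, 36.0 and 43.3 CPM, a log2 fold change of -0.16 (SE 0.11). Atf5 stood at 91.0, 77.8 and 100.98 CPM against 98.6, 91.8 and 115 CPM, a log2 fold change of 0.18 (SE 0.11). In all of these the groups overlapped.

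Ddit3 stood at 20.4, 20.04 and 18.1 CPM against 19.0, 17.0 and 21.99 CPM (log2 fold change -0.01, 95% confidence interval -0.24 to 0.22). Cebpb stood at 17.5, 22.5 and 28.9 CPM against 24.3, 24.7 and 21.99 CPM (log2 fold change 0.04, interval -0.31 to 0.40). Jdp2 stood at 11.2, 15.1 and 12.5 CPM against 12.2, 12.4 and 13.9 CPM (log2 fold change -0.01, interval -0.28 to 0.25). The groups of these 3 genes overlapped, and the sign of each turned when single libraries were left out.

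**Figure D3:**
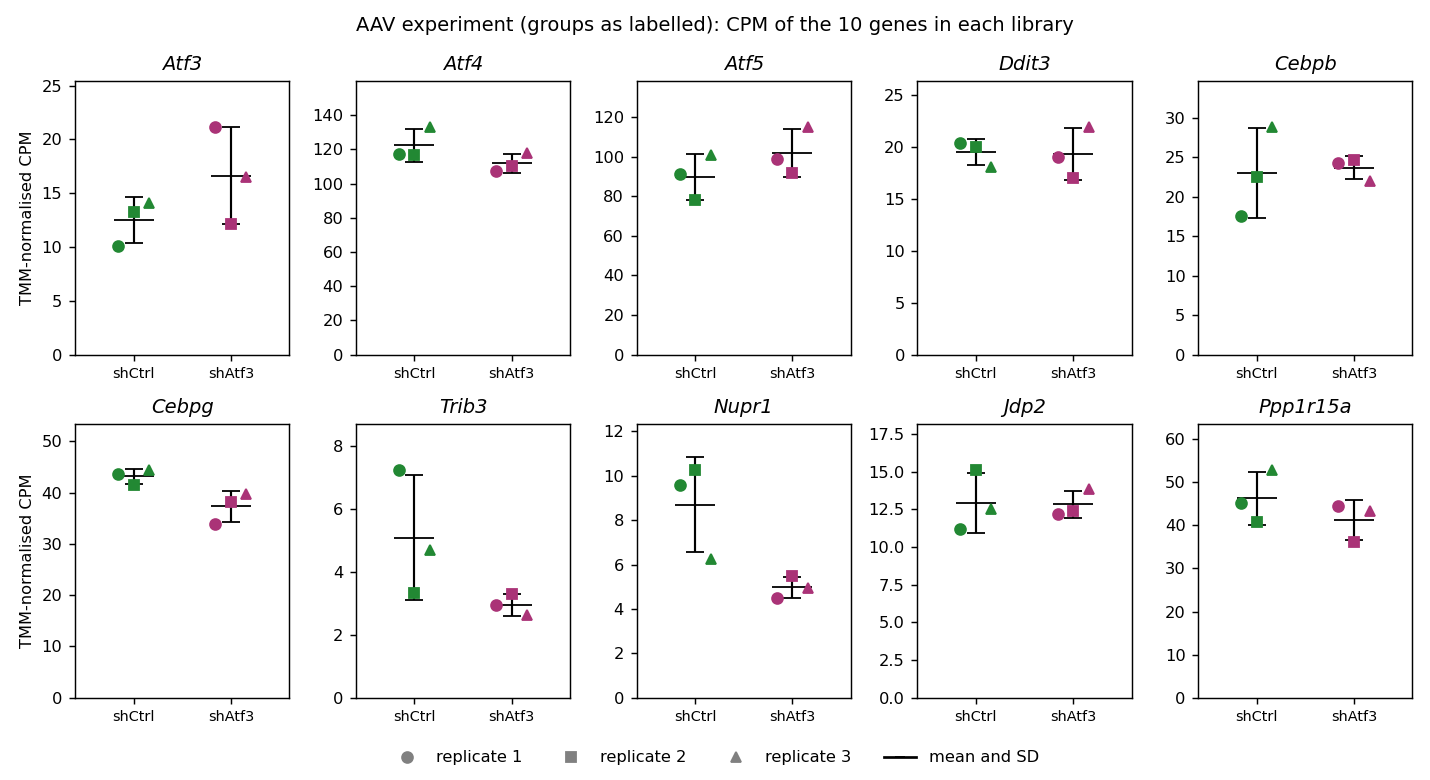
TMM-normalised CPM of the 10 genes in the 3 libraries labelled shCtrl (green) and the 3 labelled shAtf3 (purple), marker shape for the replicate number, bars for the mean and SD. Cebpg, Trib3 and Nupr1 are lower in all libraries labelled shAtf3, and Atf3 overlaps.

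The fold changes of the experiments were set against each other in 1 edgeR fit of the 14 libraries, as the knockout effect minus the AAV effect. The experiments share no library, and they differ in the way Atf3 was targeted and were run as separate experiments, which cannot be told apart. The difference was 1.38 for Trib3 (SE 0.39, adjusted p = 0.107), 0.34 for Cebpg (SE 0.10, adjusted p = 0.107) and 1.11 for Nupr1 (SE 0.36, adjusted p = 0.147). These 3 genes had positive fold changes in the knockout and negative ones in the libraries labelled shAtf3. Atf4 differed by 0.25 (SE 0.12, adjusted p = 0.293 by edgeR) and Atf3 by 0.72 (SE 0.65, adjusted p = 0.621). None of the 10 genes passed, beside 0.166% of the 15708 genes tested. At an unadjusted p below 0.05 stood 4 of 10, beside 17% of all genes, DESeq2 called Trib3 (adjusted p = 0.0198), Cebpg (adjusted p = 0.0468) and Nupr1 (adjusted p = 0.0497) beside 4.27% of the genes it tested, and limma-trend called none. These differences hold only with the AAV direction of the labels. With the direction of the AAV column names instead, all AAV fold changes change sign, and the difference became -0.19 for Trib3 (SE 0.39), -0.50 for Nupr1 (SE 0.36) and -0.08 for Cebpg (SE 0.10). In that direction these 3 genes had positive fold changes in both experiments. None of the 10 genes was then called by edgeR (beside 0% of all genes) or DESeq2 (beside 0.0191%), and Atf3 alone (1.55, SE 0.65) stood at an unadjusted p below 0.05 by edgeR, beside 4.14% of all genes.

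**Figure D4:**
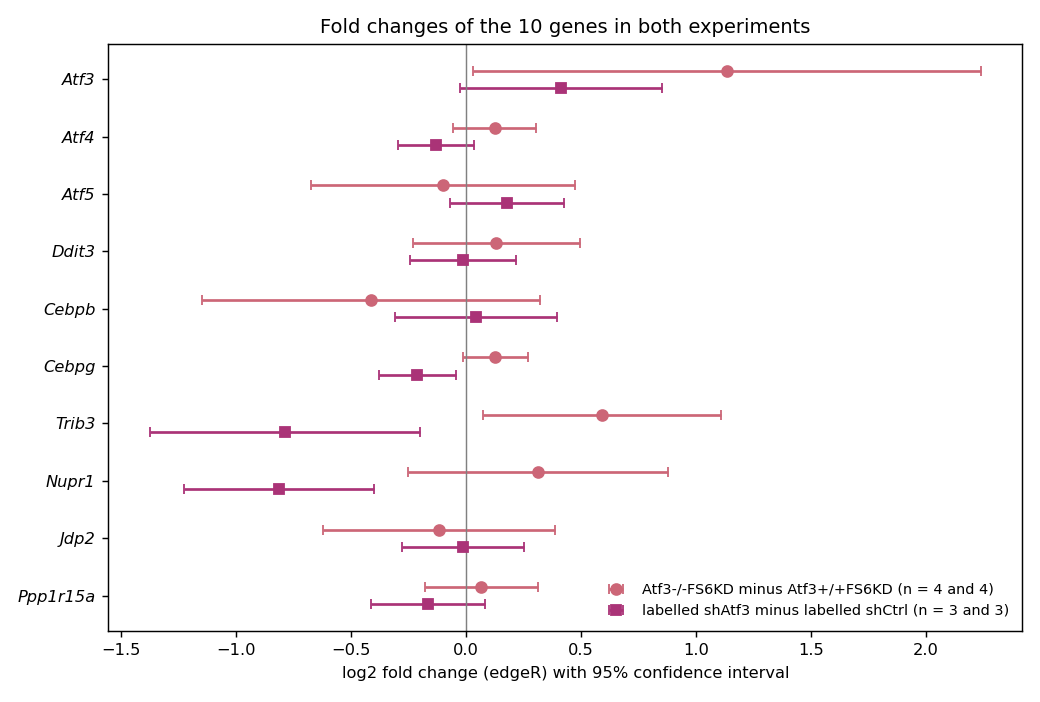
Log2 fold changes of the 10 genes from edgeR with 95% confidence intervals, knockout experiment in red circles (n = 4 and 4) and AAV experiment as labelled in purple squares (n = 3 and 3). Trib3, Nupr1 and Cebpg lie on opposite sides of 0 in the experiments, and the interval of Atf3 in the knockout is the widest.

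The rest of the pathway was read from lists of its known genes. The median log2 fold change of all genes tested was 0.00 in both comparisons. Of 18 genes for eIF2alpha kinases, eIF2, eIF2B, eIF2alpha phosphatases and the mitochondrial stress relay, none was called in either comparison by edgeR or DESeq2. In the knockout comparison 16 were lower and 2 higher (median log2 fold change -0.04), and 1 of 18 had an unadjusted p below 0.05, beside 10.1% of all genes. That gene was Dele1, which carries the mitochondrial stress signal to the kinase Hri, at 229 ± 15.8 CPM in Atf3+/+FS6KD and 206 ± 9.43 CPM in the knockouts (log2 fold change -0.16, SE 0.06, adjusted p = 0.47 by edgeR). In the AAV comparison 13 were higher and 5 lower (median 0.06), with none at an unadjusted p below 0.05. Oma1, the protease that cleaves Dele1, had a log2 fold change of 0.14 (SE 0.07) there.

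Of 41 ISR target genes 40 were tested, and Fgf21 failed the filter. None was called by edgeR or DESeq2 in either comparison. In the knockout comparison 20 were higher and 20 lower (median 0.00), and 3 of the higher and 1 of the lower had an unadjusted p below 0.05, a share of the 40 that is near the 10.1% of all genes. The higher ones were the cystine carrier Slc7a11 (6.66 ± 0.825 and 8.33 ± 0.766 CPM, log2 fold change 0.33), the glycine carrier Slc6a9 (0.62) and the serine synthesis enzyme Psat1 (0.52). The lower one was Mthfd2, the mitochondrial one-carbon enzyme, with 34.4 ± 15.1 and 20.4 ± 6.22 CPM (log2 fold change -0.76, SE 0.32, adjusted p = 0.471 by edgeR).

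In the AAV comparison 15 targets were higher and 25 lower (median -0.04). Of the 40 tested, 1 of the higher and 2 of the lower had an unadjusted p below 0.05 by edgeR, beside 12.7% of all genes. Mthfd2 stood at 53.2 ± 7.62 CPM in the libraries labelled shCtrl and at 67.6 ± 5.83 CPM in those labelled shAtf3 (log2 fold change 0.35, SE 0.11, adjusted p = 0.243 by edgeR). Gdf15, a secreted stress hormone, stood at 6.64 ± 4.96 and 1.89 ± 0.733 CPM (log2 fold change -1.82, SE 0.50, adjusted p = 0.193 by edgeR). In the knockout comparison it went the other way without passing, at 7.95 ± 4.28 and 16.0 ± 6.80 CPM with overlapping groups (log2 fold change 0.99, SE 0.48, adjusted p = 0.527 by edgeR). The amino acid carrier Slc7a5 had a log2 fold change of -0.40 (SE 0.17). Only Gdf15 of the targets passed the test under any alternative, in the AAV comparison with no filter on low counts (beside 1.13% of all genes).

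The list of bZIP relatives of Atf3 was tested for 36 of 38 genes, with Fosl1 and Batf3 under the filter, and none was called by edgeR. The counts include Cebpz, which carries the C/EBP name but is not a bZIP factor and had a log2 fold change of 0.07 in the knockout comparison. In the knockout comparison 22 were higher and 14 lower (median 0.05). Jun, the AP-1 partner of Atf3, stood at 96.1 ± 6.21 and 76.8 ± 11.4 CPM (log2 fold change -0.32, SE 0.10, adjusted p = 0.389 by edgeR), with overlapping groups. Creb5 (0.37) and Batf (0.66) were the others with an unadjusted p below 0.05, so that 3 of 36 stood there beside 10.1% of all genes. In the AAV comparison 13 were higher and 23 lower (median -0.04), with 2 and 7 at an unadjusted p below 0.05, beside 12.7% of all genes. Fosl2, an AP-1 member, had a fold change on the log2 scale of 0.48 (SE 0.16, adjusted p = 0.256 by edgeR) and was the single relative called by DESeq2, 1 of 36 beside 2.02% of all genes. Lower without overlap were 7 of the 36, beside 9.94% of all genes, among them Cebpd (-0.33), Mafg (-0.23) and Creb3l2 (-0.20). The relatives of Trib3, Trib1 and Trib2, had log2 fold changes between -0.03 and 0.10 in both comparisons.

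Immediate early genes, which respond within minutes to handling of tissue as well as to stress, had a median log2 fold change of -0.28 in the knockout comparison. Of the 21 tested, 16 were lower and 5 higher, none was called by edgeR or DESeq2, and Jun, Zfp36 (-0.42) and Btg2 (-0.58) stood at an unadjusted p below 0.05, which is 3 of 21 beside 10.1% of all genes. The median was -0.52 within the shallow and -0.05 within the deep libraries. In the AAV comparison 13 were lower and 8 higher (median -0.06), none was called by edgeR, and 5 of 21 (1 higher and 4 lower) stood at an unadjusted p below 0.05, beside 12.7% of all genes. The higher one was Nr4a3 (log2 fold change 1.16), and the lower ones with the smallest p were Myc (-0.71), Klf6 (-0.24) and Gadd45b (-0.25). Of the 21 only Myc was called by DESeq2 (beside 2.02% of all genes) and by edgeR with no filter on low counts (beside 1.13%). Fos itself varied from 3.21 to 39.0 CPM over the 14 libraries.

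Whether Atf3 varied with the other genes inside the groups was tested on deviations from the group means, so that the genotype or hairpin could not make the relation. Of 12 relations (the 9 other genes, Fos, Jun and Egr1), none passed after adjustment. The closest was Ppp1r15a, with r = 0.804 over 14 libraries (permutation p = 0.00641, adjusted p = 0.0769) and rho = 0.684 (permutation p = 0.00916, adjusted p = 0.11). Without the libraries farthest from the median of Atf3, Atf3+/+FS6KD replicate 1 and Atf3-/-FS6KD replicate 4, r was 0.693 over 12 libraries (exact permutation p = 0.0463, adjusted p = 0.278). Cebpb (r = 0.306) had a lower exact permutation p there (0.034, adjusted p = 0.278). The deviations over these 12 libraries were still taken from the means of the full groups. Offsets between groups therefore enter these r values and stay fixed in the permutations. The r of Ppp1r15a was 0.923 in the 8 knockout libraries (exact permutation p = 0.0278, adjusted p = 0.333), with rho = 0.619 (exact permutation p = 0.135), and 0.649 in the 6 AAV libraries. In the knockout series replicates 3 and 4 of both genotypes are the deep libraries, and Atf3 was below its group mean in all 4 of them. With deviations taken from the means of group and depth, and permuted within these, r was 0.761 (exact permutation p = 0.0747, adjusted p = 0.493). Atf4 followed with r = 0.442 (permutation p = 0.12, adjusted p = 0.72). For Atf5, Ddit3, Cebpb, Cebpg, Trib3, Nupr1 and Jdp2, r lay between -0.27 and 0.17. Fos (0.078), Jun (0.091) and Egr1 (-0.08) had r near 0 over the 14 libraries, and 0.485, 0.735 and 0.513 in the 6 AAV libraries alone. In those 6, Cebpg (-0.538), Trib3 (-0.548) and Nupr1 (-0.564) had a negative r, against 0.401, 0.408 and 0.082 in the 8 knockout libraries. All libraries contribute to each relation.

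**Figure D5:**
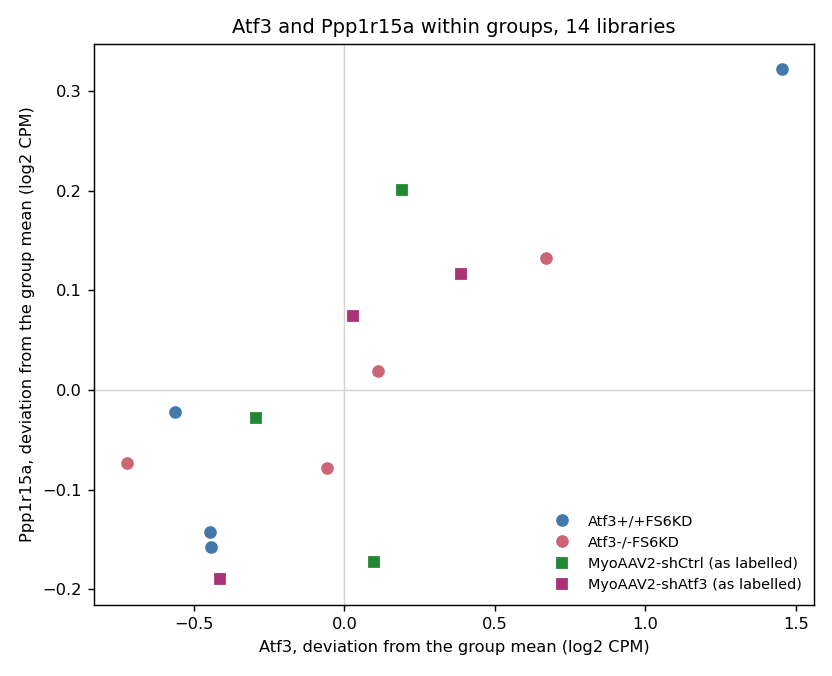
Deviation of Ppp1r15a from its group mean against that of Atf3, both in log2 CPM, for the 14 libraries coloured by group, circles for the knockout and squares for the AAV experiment. The point at the upper right is Atf3+/+FS6KD replicate 1, and r is 0.804 with it and 0.693 without it and the other farthest library. The value of 0.693 keeps the deviations from the means of the full groups.

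By the same measure over 12668 expressed genes, the genes most like Atf3 were 2610002M06Rik (r = 0.904), Ttc12 (0.879), Itprip (0.878), Prmt5 (0.851) and Kbtbd12 (0.849), over 14 libraries. Ppp1r15a came at rank 23. With this many candidates and 14 libraries these values are a description only. Among pairs of the 10 genes without Atf3, the highest r was 0.685 for Nupr1 and Jdp2 and the lowest was -0.611 for Trib3 and Jdp2.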

How the data were processed

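The authors sequenced poly(A) RNA of whole hearts (TruSeq Stranded libraries) and deposited 1 table per experiment of estimated counts per gene and library, made with featureCounts 2.0.0 on GRCm38.p6 per the submitters' processing notes. The aligner and the use of strand are not given in the sources used here. Between 19.3% and 24.4% of a library's values were not whole, so they were read as estimated counts and rounded, while the design had assumed whole counts. No deposited column was left unused (0). None of the 10 genes has a copy on an alternate locus.

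Libraries were grouped by the GEO labels. The labels number replicates without naming animals, so p-values measure the spread between these libraries. A comparison took the genes that exceeded 1 CPM in 1 library or more. They were tested with edgeR 4.0.16 in R 4.3.3 (two-sided quasi-likelihood F-test after TMM, adjusted p below 0.05 after Benjamini-Hochberg over all genes tested). The SE is the log2 fold change over the root of F. limma 3.58.1 and DESeq2 1.42.0 were alternatives, and the fits were tested on simulated data. Relations were tested two-sided with 100000 permutations within groups, which does not hold the depth batch of the knockout series fixed. Promoters and start sites are RefSeq's, and exons GENCODE's. The sequence of 1 exon is not reported here. The 10 genes and all lists were chosen with earlier results of these data known. Of a list, up to 3 genes per direction with the smallest unadjusted p could be named. The principal transcript length for levels, the turned AAV direction and the relations within depth batches were added after seeing the data.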

Additional observations from a re-analysis of the deposited data

Results flagged for a closer look

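Single libraries stood apart from the other 3 of their group by Dixon's criterion in 3 of 20 gene and group pairs of the knockout experiment, and chance gives about 1 in 20. These were Atf3 in Atf3+/+FS6KD replicate 1 (25.8 CPM, a gap of 0.972 of the group's range), Nupr1 in Atf3+/+FS6KD replicate 3 (7.77 CPM, 0.926) and Atf5 in Atf3-/-FS6KD replicate 3 (108 CPM, 0.841). Groups of 3 were not examined in this way.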

How the results depend on the processing

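Over all alternatives, 513 of 550 values of single genes kept the direction and the side of the threshold, 7 passed it and 30 changed sign. In the knockout comparison the count of called genes was 0 in every alternative, leaving out single libraries included (0 to 0). In the AAV comparison it was 1 with no filter (beside 1.13% of all genes) and with DESeq2 (beside 2.02%). With single libraries left out it was 0 to 1, where the 1 stood beside 285 of 15144 genes. In the difference of the experiments it was 1 for library size alone (Cebpg, adjusted p = 0.0484 by edgeR, beside 205 of 15708 genes). It was 3 with DESeq2 (beside 4.27% of all genes) and 0 to 0 with single libraries left out. The median of all genes there was 0.105 for library size alone and 0.001 with TMM. With the AAV direction of the column names, edgeR and DESeq2 gave differences below 0 for Trib3 (-0.19 by both), Nupr1 (-0.50 and -0.49), Cebpg (-0.08), Ppp1r15a (-0.09) and Atf4 (-0.0017) and above 0 for Atf5 (0.08).

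Changes of sign in the knockout comparison were seen within the shallow libraries for Atf5 (0.03), Cebpb (0.09) and Jdp2 (0.04) and within the deep ones for Nupr1 (-0.05). With single libraries left out, the log2 fold changes ranged from -0.34 to 0.15 for Atf5, from -0.60 to 0.03 for Cebpb and from -0.23 to 0.11 for Jdp2. In the AAV comparison they ranged from -0.11 to 0.08 for Ddit3, from -0.12 to 0.24 for Cebpb and from -0.11 to 0.11 for Jdp2, and in the difference of the experiments from -0.23 to 0.12 for Jdp2. Log2 fold changes of Atf3 ranged from 0.87 to 1.89 in the knockout and from 0.20 to 0.60 in the AAV comparison. The cause was not tested. Relations to Atf3 changed sign without the farthest 2 libraries, with deviations still from the full group means, for Ddit3 (0.164), Trib3 (-0.184), Nupr1 (0.03), Jdp2 (0.108) and Fos (-0.014). In the knockout libraries they changed sign for Nupr1 (0.082), Fos (-0.004) and Jun (-0.3). In the AAV libraries they did for Atf5 (0.232), Ddit3 (0.179), Cebpg (-0.538), Trib3 (-0.548), Jdp2 (0.301) and Egr1 (0.513), and within depth batches for Atf5 (0.354), Cebpg (-0.178), Nupr1 (0.131) and Fos (-0.129).

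Whether the replicate numbers pair the libraries was not settled. Same-numbered libraries correlated at 0.145, 0.086, 0.006 and 0.127 in the knockout and at 0, 0.151 and 0.083 in the AAV experiment. Differently numbered libraries correlated at -0.244 to 0.19 in the knockout and at -0.178 to 0.089 in the AAV experiment. With the replicate block 0 of the 10 genes were called in each comparison, and over all genes 0, 20 and 56 instead of 0, 82 and 26. Not every library correlated best with its own number. With DESeq2 the calls over all genes were 208, 308 and 669. With 4 or 3 libraries a group, the intervals leave room for changes of the size printed.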
